A study of Mus musculus with 3 samples.

Results

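Fatty acid oxidation and the peroxisomal genes that respond to PPARA were followed here through 38 named mouse genes, out of 24842 genes on the array. The members were taken by the gene name printed in the array files, leaving out control spots, and all 38 had a probe. Of these, 35 were detected, meaning that a probe stood well above background on 1 array or more, and their brightest such probe was used. The cells were Hepa1c1c7, a mouse hepatoma line, transfected with a Cd74 vector, a Tmem54 vector or an Empty vector. Cd74 is the invariant chain of MHC class II and a receptor for the cytokine MIF, and Tmem54 is a protein with membrane-spanning segments. For each vector there is 1 Agilent 1-colour array, hybridised with total RNA labelled as cRNA, so no value has a replicate, no difference was tested and no p-value is given. All groups share the line and the transfection step. The promoter of the vectors, the time after transfection and the share of cells that took up a vector are not given in the sources used here.

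Long-chain fatty acids are first joined to coenzyme A by acyl-CoA synthetases. The carnitine shuttle then carries the acyl groups into mitochondria, where each turn of beta-oxidation runs through a dehydrogenase, a hydratase, another dehydrogenase and a thiolase. Peroxisomes shorten very long and branched chains with their own enzymes and pass the products on, and thioesterases and CoA diphosphatases release or degrade the acyl-CoA. In liver, the nuclear receptor PPARA switches on many of these genes during fasting, through DNA elements built from AGGTCA-like hexamers spaced by 1 base. By the known location and role of their products, 16 members were counted as mitochondrial steps, 11 as peroxisomal steps and 11 as neither. Some choices were arbitrary. Eci2, found in both organelles, was counted as peroxisomal, while Crat, also found in both, and Pdk4, which acts on pyruvate use, were counted as neither.

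The processed signal is a linear intensity. Each difference below is the log2 processed signal of 1 array minus that of another, after each array's 75th percentile was subtracted. The error after ± is the model error of that difference, from the signal errors given by the Agilent Feature Extraction software. For bright probes this error was 0.20, set mainly by a preset multiplicative error of 0.1 in that software's error model. It does not cover the spread between cultures. Signals of different probes cannot be ranked against each other. In bulk RNA, fewer cells expressing a gene and less RNA per cell cannot be told apart.

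The arrays lay on 1 slide and shared 1 scan time. Between 33049 and 33896 spots per array were well above background, and none was saturated (0 spots). The labels were checked on the transfected genes. The Cd74 probe had a signal of 10855 with Cd74, 22.4 with Tmem54 and 26.8 with Empty. The Tmem54 probe had a signal of 19747 with Tmem54 and was not well above background with Cd74 or Empty. Of 12 hepatocyte markers, Tf had no probe under its listed name and 5 were detected. Their summed signal was 5698 with Cd74, 13583 with Tmem54 and 8985 with Empty, and albumin (Alb) alone had 2993, 10261 and 5727 in the same order. Ttr, Apoa1, Apob, Fgb, Cps1 and Hnf4a were not well above background on any array, so RNA of several defining hepatocyte genes was not detected.

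Promoter sequences from RefSeq (GRCm38.p6, 250 bases before to 50 after the annotated start, read along the gene) are shown for 5 members. Acot2 and Nudt7 are the members that differed at least 2-fold between arrays. Acadvl and Echs1 are mitochondrial enzymes whose window holds the hexamer AGGTCA, and Fabp1 has the only member window with a spaced pair. Capitals mark AGGTCA, written TGACCT where it lies on the opposite strand, and in Fabp1 also the spaced pair.
Acot2, chr12:83987611-83987910, plus strand: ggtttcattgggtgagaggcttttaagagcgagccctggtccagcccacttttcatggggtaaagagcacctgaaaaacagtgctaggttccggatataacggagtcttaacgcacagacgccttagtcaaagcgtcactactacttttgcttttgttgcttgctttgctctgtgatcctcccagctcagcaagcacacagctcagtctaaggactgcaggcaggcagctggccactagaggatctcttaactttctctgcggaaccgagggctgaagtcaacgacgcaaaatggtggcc
Nudt7, chr8:114133324-114133623, plus strand: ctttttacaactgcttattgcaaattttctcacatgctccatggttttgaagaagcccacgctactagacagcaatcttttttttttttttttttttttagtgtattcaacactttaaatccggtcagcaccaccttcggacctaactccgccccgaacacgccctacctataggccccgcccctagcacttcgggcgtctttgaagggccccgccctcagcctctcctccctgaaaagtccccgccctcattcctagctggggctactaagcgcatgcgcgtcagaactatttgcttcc
Acadvl, chr11:70015379-70015678, minus strand: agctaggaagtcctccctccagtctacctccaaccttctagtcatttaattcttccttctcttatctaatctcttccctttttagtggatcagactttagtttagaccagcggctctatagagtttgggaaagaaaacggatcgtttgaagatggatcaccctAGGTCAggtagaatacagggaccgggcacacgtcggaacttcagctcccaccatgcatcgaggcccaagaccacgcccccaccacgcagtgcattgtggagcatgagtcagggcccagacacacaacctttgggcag
Echs1, chr7:140116372-140116671, minus strand: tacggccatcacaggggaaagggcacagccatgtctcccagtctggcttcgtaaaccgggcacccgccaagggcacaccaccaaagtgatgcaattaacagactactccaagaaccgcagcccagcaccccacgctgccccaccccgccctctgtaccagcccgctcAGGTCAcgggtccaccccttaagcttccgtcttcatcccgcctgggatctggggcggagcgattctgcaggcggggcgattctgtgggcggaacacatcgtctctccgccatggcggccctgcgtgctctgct
Fabp1, chr6:71199629-71199928, plus strand: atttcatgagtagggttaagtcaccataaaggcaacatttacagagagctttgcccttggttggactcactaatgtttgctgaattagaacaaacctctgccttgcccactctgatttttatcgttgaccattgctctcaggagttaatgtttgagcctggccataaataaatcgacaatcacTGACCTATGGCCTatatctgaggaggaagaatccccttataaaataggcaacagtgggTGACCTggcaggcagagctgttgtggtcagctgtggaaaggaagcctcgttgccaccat
On both strands, AGGTCA was found in 7 of the 33 members with a promoter in the table (Acadm, Acadvl, Acot3, Acot4, Cpt1a, Echs1 and Fabp1). It was found in 18.1% of all genes with a promoter there, and in 16.3% of all 32851 windows. A pair of AGGTCA on the same strand with any 1 base between them was found in 0 member windows and in 13 windows in all. The looser pair, with any base at the fourth place of each hexamer, was found in Fabp1 and in 0.381% of all windows, and in Fabp1 it overlaps the AGGTCA at position -67. A match is a description of these letters only, and the windows of Acot2 and Nudt7 hold none of the 3 motifs.

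Across the list most members lay close to the Empty array, and single members stood apart. With Cd74, 1 of 35 members was at least 2-fold higher than with Empty (Acot2) and 0 were at least 2-fold lower, against 1.02% and 1.4% (2.43% in either direction) of the 15614 genes compared. With Tmem54, 0 of 35 were at least 2-fold higher and 1 was at least 2-fold lower (Nudt7), against 0.522% and 0.812% (1.33% in either direction) of 15516 genes. Between Cd74 and Tmem54, 2 members were at least 2-fold higher with Cd74 (Acot2 and Nudt7) and 0 were lower, against 1.63% and 1.69% (3.32% in either direction) of 15423 genes. At any size, 13 of 35 members were above Empty with Cd74 and 22 below, against 52.4% and 47.6% of all genes. With Tmem54, 23 were above Empty and 12 below, against 49.0% and 51.0%. Between Cd74 and Tmem54, 13 were higher and 22 lower with Cd74, against 54.4% and 45.6%. The median member difference was -0.05 for Cd74 minus Empty, 0.04 for Tmem54 minus Empty and -0.06 for Cd74 minus Tmem54. The medians over all genes compared were 0.01, -0.003 and 0.03. For Cd74 minus Empty, 31 of 35 members lay within 0.5 of 0, as did 89.6% of all genes. For Tmem54 minus Empty 31 members did so, as did 94.8% of all genes, and for Cd74 minus Tmem54 28 members did, as did 86.8% of all genes. The Cd74 and Tmem54 differences share the Empty array, so their values are given side by side and not correlated.

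**Figure D1:**
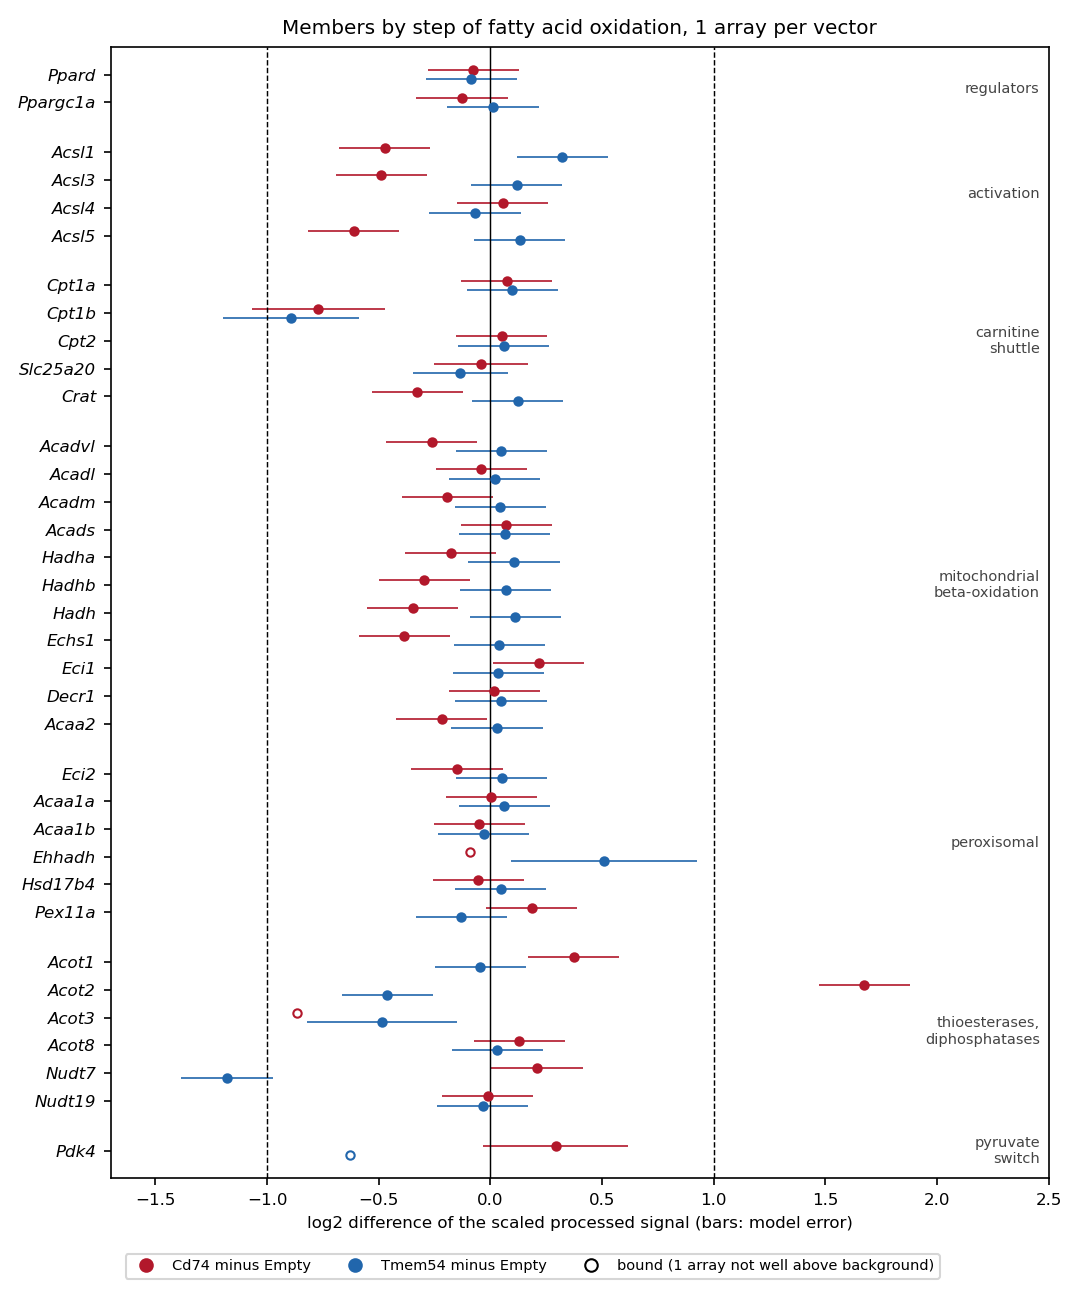
Log2 difference of the scaled processed signal from Empty (horizontal axis) for each detected member, by step, with Cd74 and Tmem54 points, model errors as bars and open points for bounds. Acot2 with Cd74 at 1.67 and Nudt7 with Tmem54 at -1.18 lie past 2-fold, and most other points lie within 0.5 of 0.

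Among the regulators, Ppara was not well above background by either of its probes on any array, with signals between 2.84 and 7.10. The receptor that names the pathway was thus not detected in these cells. Ppard, a relative of Ppara found in most tissues, had signals of 1266 with Cd74, 1328 with Tmem54 and 1398 with Empty. Its differences from Empty were -0.08 with Cd74 and -0.09 with Tmem54, both within the model error. Ppargc1a, a coactivator that drives mitochondrial gene expression, had 509 with Cd74, 591 with Tmem54 and 581 with Empty. The 3 arrays thus differed little for both detected regulators.

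The activating enzymes had the lowest median of the groups in Cd74 minus Empty. Acsl1, the main long-chain acyl-CoA synthetase of liver, had a signal of 2463 with Cd74, 4513 with Tmem54 and 3579 with Empty. Its differences from Empty were -0.47 ± 0.20 with Cd74 and 0.32 ± 0.20 with Tmem54, so the Cd74 array was lowest and the Tmem54 array highest. Acsl3, linked to lipid droplets, had 676 with Cd74, 1085 with Tmem54 and 992 with Empty, and was -0.49 ± 0.20 with Cd74. Acsl5, found on mitochondria and the endoplasmic reticulum, had 3533 with Cd74, 6237 with Tmem54 and 5647 with Empty, and was -0.61 ± 0.20 with Cd74. Acsl4, which prefers arachidonic acid, had 5682 with Cd74, 5505 with Tmem54 and 5725 with Empty and was not lower with Cd74, at 0.05 from Empty with Cd74 and -0.07 with Tmem54. Its other detected probes gave 0.27 and 0.19 with Cd74, and 0.40 and 0.39 for Cd74 minus Tmem54. Over the 4 synthetases the median was -0.48 for Cd74 minus Empty and 0.12 for Tmem54 minus Empty. Under all settings tried, 1 synthetase was above and 3 below Empty with Cd74. In the main setting 52.4% of all genes were above and 47.6% below. Against Tmem54, the Cd74 array differed by -0.80 for Acsl1, -0.61 for Acsl3 and -0.74 for Acsl5. Other probes gave -0.38 for Acsl1 and -0.41 for Acsl3 in Cd74 minus Empty, but the other Acsl5 probe, with signals of 136 with Cd74, 158 with Tmem54 and 154 with Empty, gave only -0.12. The summed hepatocyte marker signal was also lowest with Cd74 and highest with Tmem54, but most of it came from Alb alone. Of the 5 detected hepatocyte markers, 1 was above Empty with Cd74 and 3 with Tmem54, with medians of -0.33 and 0.02. The part of these markers in the result was not tested. Fabp1, the fatty acid binding protein of liver, was not well above background on any array, at 3.32 with Cd74, 12.9 with Tmem54 and 3.14 with Empty.

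**Figure D2:**
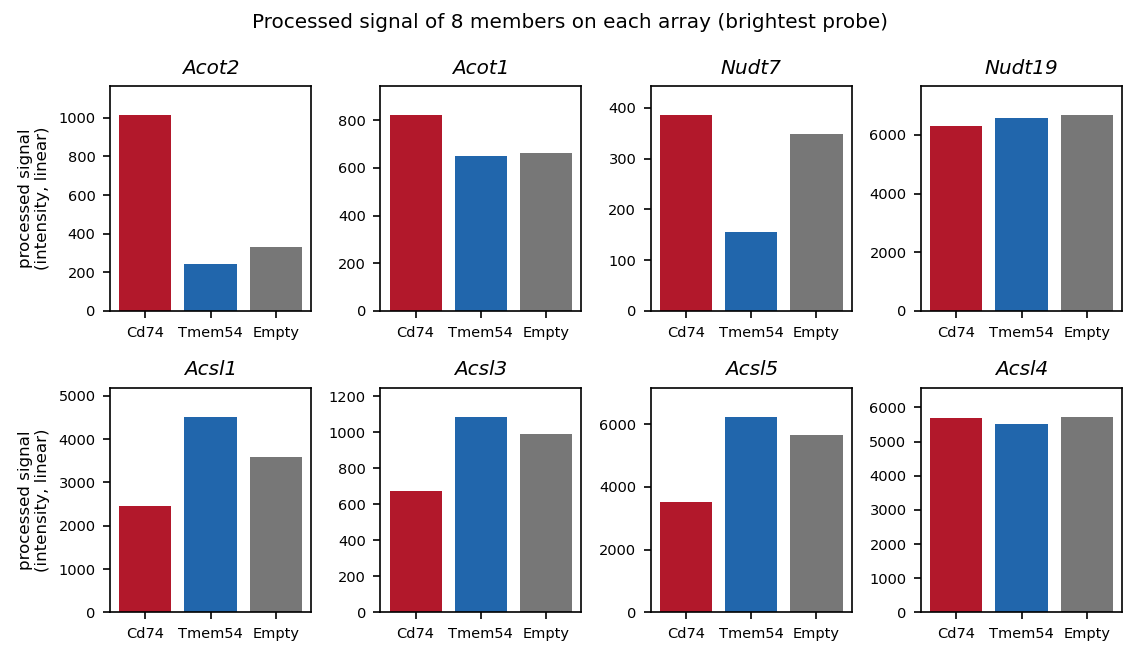
Processed signal (linear intensity, vertical axis from 0) of 8 members on the Cd74, Tmem54 and Empty arrays, 1 bar per array. Acot2 is highest with Cd74 (1013), Nudt7 is lowest with Tmem54 (155), and Acsl1, Acsl3 and Acsl5 are lowest with Cd74 while the brightest Acsl4 probe lies between 5505 and 5725.

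In the carnitine shuttle, Cpt1a, Cpt2 and Slc25a20 lay within the model error of Empty. Crat was lower with Cd74. Cpt1b was lower with both Cd74 and Tmem54, which differed by 0.12. Cpt1a, the liver form of the rate-limiting carnitine palmitoyltransferase, had 5364 with Cd74, 5753 with Tmem54 and 5333 with Empty, with differences of 0.07 and 0.10. Cpt2, its partner at the inner membrane, had 4563 with Cd74, 4846 with Tmem54 and 4613 with Empty, and Slc25a20, the carnitine-acylcarnitine exchanger, had 111, 110 and 120 in that order. Neither departed from Empty beyond the model error. Crat, the carnitine acetyltransferase of mitochondria and peroxisomes, had 2686 with Cd74, 3869 with Tmem54 and 3525 with Empty, a Cd74 difference of -0.33 ± 0.20. Its other probe gave -0.13. Cpt1b, the muscle form, had 24.6 with Cd74, 23.9 with Tmem54 and 43.9 with Empty. Its differences were -0.77 ± 0.30 and -0.89 ± 0.31, but normexp background correction left -0.24 and -0.31, so the size depends on the background correction. Among 9 markers of muscle and brown adipocytes, 4 were detected, and Ucp1, Cidea, Ckm, Myog and Cox8b were not well above background on any array. The summed signal of the detected markers was 727 with Cd74, 448 with Tmem54 and 459 with Empty, but most of the Cd74 sum came from Cox6a2 alone. With Cd74, 2 of the 4 were above Empty and 2 below. With Tmem54, 1 of the 3 compared was above Empty and 2 below. Cox6a2, a muscle subunit of cytochrome oxidase, had 454 with Cd74, 43.0 with Tmem54 and 91.1 with Empty, at 2.38 ± 0.21 and -1.09 ± 0.23, and Myh7, a muscle myosin, was at -0.77 with Cd74. Their part in the Cpt1b values was not tested.

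The 11 enzymes of mitochondrial beta-oxidation were all well above background on all 3 arrays and all lay within 0.5 of Empty. With Cd74, 8 of 11 were below Empty and 3 above, with a median of -0.19, where 47.6% of all genes compared were below. With Tmem54, 11 of 11 were above Empty by 0.02 to 0.11, with a median of 0.05, where 49.0% of all genes were above. Each of these Tmem54 differences is smaller than its model error of 0.20, and 10 of 11 were above 0 under normexp correction or the mean of all probes. The Cd74 split of 3 above and 8 below was the same under every scaling tried. Marker lists did not all go the same way. With Cd74, 4 of 5 detected hepatocyte markers and 6 of 7 detected fibroblast and stellate cell markers were below Empty, with medians of -0.33 and -0.25. With Tmem54, 3 of 5 and 5 of 7 were above Empty, with medians of 0.02 and 0.20. Of the detected cholangiocyte and progenitor markers, 3 of 5 were above Empty with Cd74 and 4 of 5 with Tmem54, with medians of 0.15 and 0.08. Of the detected macrophage and B cell markers, 1 of 6 was above with Cd74 and 3 of 6 with Tmem54, with medians of -0.16 and -0.05. The summed fibroblast and stellate cell signal was 91914 with Cd74, 82463 with Tmem54 and 90790 with Empty. This sum ran the other way from most of these markers. Dcn was the only 1 of them above Empty with Cd74 (0.22), and it was the lowest with Tmem54 (-0.26). The part of the marker lists in the result was not tested.

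The acyl-CoA dehydrogenases, which carry out the first step, differ in the chain lengths they take. Acadvl, for very long chains, had 5138 with Cd74, 6729 with Tmem54 and 6448 with Empty (-0.26 ± 0.20 with Cd74). Acadm, for medium chains, had 5603 with Cd74, 6975 with Tmem54 and 6703 with Empty (-0.19 ± 0.20). Acadl, for long chains, and Acads, for short chains, were at -0.04 and 0.07 with Cd74, inside the model error. Of the later enzymes, Echs1, the short-chain hydratase, had 4208 with Cd74, 5957 with Tmem54 and 5750 with Empty, at -0.39 ± 0.20 with Cd74. Its other probe gave -0.22. Hadh, the medium- and short-chain hydroxyacyl-CoA dehydrogenase, had 5597 with Cd74, 8123 with Tmem54 and 7454 with Empty, at -0.35 ± 0.20. On both enzymes the Cd74 array was the lowest of the 3. Hadha and Hadhb form the trifunctional protein, and their genes are divergent neighbours on chromosome 5 with 272 bases between them. Hadha had 328 with Cd74, 422 with Tmem54 and 389 with Empty, and Hadhb had 3051, 4146 and 3919 in that order. Both were lower with Cd74, at -0.18 and -0.30 from Empty. Acaa2, the mitochondrial thiolase, was at -0.22 with Cd74, and Decr1, the dienoyl-CoA reductase for unsaturated chains, at 0.02. Eci1, an isomerase for unsaturated chains, went the other way, with 5161 with Cd74, 4800 with Tmem54 and 4646 with Empty (0.22 ± 0.20). Against Tmem54, 9 of 11 were lower with Cd74, with a median of -0.25, where 45.6% of all genes were lower. This was 10 of 11 under median centring, quantile normalization or the deposited value table.

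Acaa1a, a peroxisomal thiolase, had 11648 with Cd74, 12788 with Tmem54 and 12151 with Empty, and Hsd17b4, the bifunctional enzyme for branched and very long chains, had 8750, 9905 and 9509. Their widest difference was -0.10, for Hsd17b4 between Cd74 and Tmem54. Acaa1b, the other peroxisomal thiolase, which in mice responds to peroxisome proliferators, was at -0.05 with Cd74 and -0.03 with Tmem54. Eci2, an isomerase of peroxisomes and mitochondria, had 6671 with Cd74, 8085 with Tmem54 and 7742 with Empty, at -0.15 ± 0.20. Pex11a, which promotes peroxisome division, had 2287 with Cd74, 1939 with Tmem54 and 2104 with Empty, at 0.19 and -0.13. Ehhadh, the classical PPARA-induced bifunctional enzyme, was near background, at 12.8 with Cd74 (not well above background), 21.6 with Tmem54 and 15.0 with Empty. Its Tmem54 difference was 0.51 ± 0.42, and 0.13 under normexp correction.

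Acyl-CoA thioesterases and CoA diphosphatases held both members past 2-fold. Acot2, the thioesterase of the mitochondrial matrix, had 1013 with Cd74, 243 with Tmem54 and 332 with Empty, read by 1 probe (mm9 chromosome 12, 85334553 to 85334612, plus strand). With Cd74 it was 3.19-fold higher than with Empty (log2 1.67 ± 0.20), a value that stayed between 1.53 and 1.67 across the settings tried. With Tmem54 it was -0.46 ± 0.21, and Cd74 against Tmem54 gave 4.39-fold. Acot1, its cytosolic neighbour 15624 bases away on chromosome 12, had 820 with Cd74, 648 with Tmem54 and 663 with Empty, at 0.37 ± 0.20 with Cd74. Acot3, a peroxisomal thioesterase of the same cluster, was dim, at 10.6 with Cd74 (not well above background), 18.5 with Tmem54 and 25.7 with Empty, at least 1.82-fold lower with Cd74 than with Empty. That bound does not hold under normexp correction, where the log2 difference was -0.25. Acot4 was not well above background on any array. Among the detected members of the cluster, a higher Cd74 signal was thus seen for Acot2 and Acot1 and not for Acot3. Acot5 and Acot6, also in the cluster, are not members and their values are not given here. The longest run of bases shared between probes of these 4 genes was 9 of 60. Probes were compared only with each other and not with transcripts. Cross-hybridisation, within the cluster or to other transcripts, was therefore not analysed here. Acot8, a peroxisomal thioesterase on another chromosome, had 5250 with Cd74, 5179 with Tmem54 and 5024 with Empty.

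Nudt7, a peroxisomal CoA diphosphatase, had 385 with Cd74, 155 with Tmem54 and 349 with Empty. With Tmem54 it was 2.27-fold lower than with Empty (log2 -1.18 ± 0.21), and Cd74 against Tmem54 gave 2.62-fold. The Tmem54 array was the low one, and Cd74 and Empty differed by 0.21. Under normexp correction the Tmem54 difference was -0.93, just inside 2-fold. Of its 3 probes only this one (mm9 chromosome 8, 116676034 to 116676093) was detected. Nudt19, another peroxisomal CoA diphosphatase, had 6321 with Cd74, 6571 with Tmem54 and 6670 with Empty, level across the arrays. Pdk4, the kinase that shuts off pyruvate dehydrogenase in fasting, was dim, at 25.02 with Cd74, 13.6 with Tmem54 (not well above background) and 21.4 with Empty. It was at least 1.55-fold lower with Tmem54 than with Empty, a log2 bound of -0.63. The value was -0.62 under median centring and the deposited table, -0.53 under quantile normalization and -0.05 under normexp correction.

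Set side by side, the 16 mitochondrial steps had a median of -0.11 for Cd74 minus Empty and the 10 detected peroxisomal steps -0.03. For Tmem54 minus Empty the medians were 0.05 and 0.0005, and for Cd74 minus Tmem54 -0.05 and -0.04. No difference between the classes was tested. Each class held 1 of the members past 2-fold, Acot2 in the mitochondrial and Nudt7 in the peroxisomal class.

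**Figure D3:**
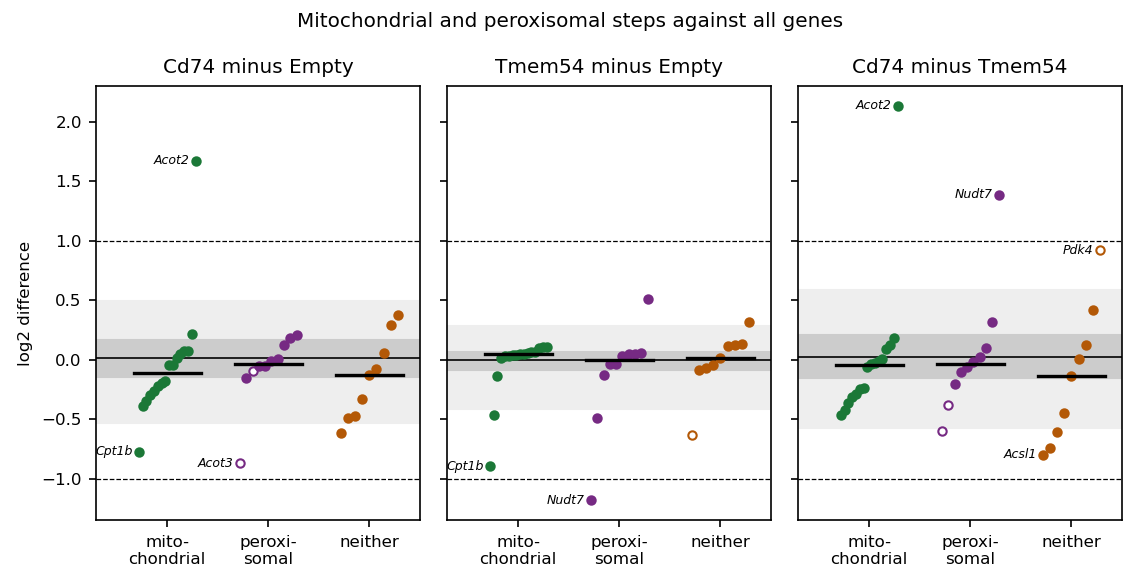
Log2 differences (vertical axis) of mitochondrial, peroxisomal and other members in each comparison, with class medians as bars, open points for bounds, dashed lines at 2-fold and grey bands for the 25th to 75th and 5th to 95th percentiles of all genes. Class medians lie between -0.14 and 0.05, and Acot2 with Cd74 and Nudt7 with Tmem54 are among the points outside the 5th to 95th percentile band.

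Within an array, 12 members were read by several detected probes. These probes lie at different positions and can read different transcripts, so the gap between them is not a spread of repeat measurements. No member probe was printed more than once. In Cd74 minus Empty all probes had the same sign for 9 of 12, with a median gap of 0.14 between probes and the widest, 0.50, for Acsl5. In Tmem54 minus Empty 6 of 12 had the same sign, with a median gap of 0.10. The Tmem54 differences in beta-oxidation, 0.02 to 0.11, were of the size of this gap. In Cd74 minus Tmem54 the sign was the same for 11 of 12.

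**Figure D4:**
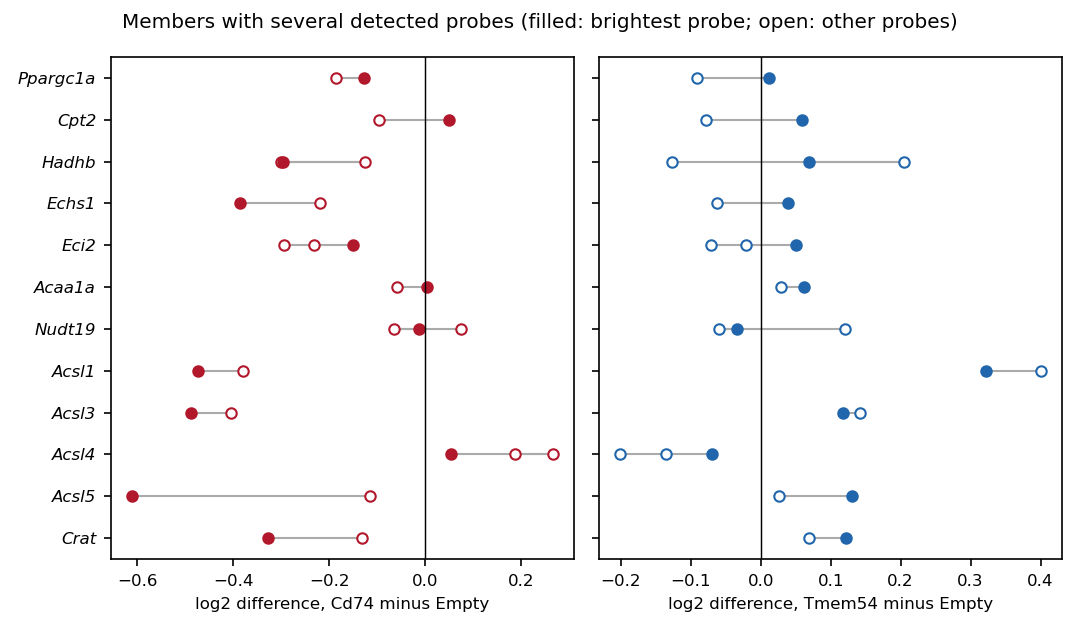
Log2 difference from Empty (horizontal axis) by each detected probe of the 12 members with several, Cd74 left and Tmem54 right, filled for the brightest probe and open for the others. Acsl1 and Acsl3 probes lie together below 0 with Cd74, and Acsl5 probes lie 0.50 apart.

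Other genes of these pathways were read against the same shares of all genes, for Cd74 minus Empty 52.4% above, 47.6% below and 2.43% past 2-fold in either direction. Of 32 other peroxisomal enzymes and transporters, 25 could be compared for Cd74 minus Empty and 0 were past 2-fold, with a median of -0.06. Mlycd, which degrades malonyl-CoA, was at 0.53 with Cd74 and -0.01 with Tmem54, and Hao1, a glycolate oxidase of liver peroxisomes, at -0.80 and -0.17. Among 15 peroxins, which build peroxisomes, 11 were above and 4 below Empty with Cd74, with a median of 0.11 and 0 past 2-fold, and this count was the same under normexp, median centring, quantile normalization and the deposited table. Of 36 other PPARA targets, Cyp4a32 and Gyk had no probe under those names and 23 were compared. With Cd74, 1 of the 23 was at least 2-fold higher than with Empty and 1 at least 2-fold lower. Plin5, a lipid droplet protein of oxidative tissues, had 22.4 with Cd74, 62.2 with Tmem54 and 130 with Empty, at -2.46 ± 0.28 and -1.07 ± 0.22. Normexp correction left -1.004 and -0.59. Creb3l3, a fasting-induced transcription factor of liver, had 29.7 with Cd74, 16.8 with Tmem54 and 13.4 with Empty, at 1.22 ± 0.37 with Cd74, but 0.35 under normexp correction. The other targets compared were within 2-fold in Cd74 minus Empty.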

How the data were processed

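RNA of Hepa1c1c7 cells was measured on 3 Agilent arrays, 1 per vector, grouped by the transfection label. The deposited intensity is a processed signal, with spatial and multiplicative detrending switched on, per the file headers. The submitters' processing notes name Agilent Feature Extraction 12.0.3.1. The authors' deposited value table holds a ratio, each array's processed signal over a single number (559.8 for Cd74, 580.7 for Tmem54 and 580.3 for Empty), with column medians of 0.0393, 0.0390 and 0.0409. It is linear and not centred, and was used as an alternative.

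The log2 processed signal minus the array's 75th percentile was computed with Python 3.11.15, numpy 2.4.6 and pandas 2.3.3, and normexp correction with an offset of 50 with limma 3.58.1 in R 4.3.3. Control spots and between 119 and 135 outlier spots per array were left out. Probes printed more than once were averaged, and a gene took its brightest probe well above background on at least 1 array. A probe well above background on 1 of 2 arrays gave a bound, which set the bright signal against the dim array's lowest well-above signal, or the dim probe's own where higher. A difference was counted at 2-fold or more. Symbols and promoters came from RefSeq tables of GRCm38.p6, and probe positions are as the array files give them (mm9). No genome was used here, so the exon or UTR position of a probe was not analysed.

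Members and lists were chosen with earlier results of these data known, and all differences are descriptions. All members are named, with up to 4 genes per other list and those past 2-fold. The counting step was tested on simulated data. Alternatives were normexp, median centring, quantile normalization, the deposited table, the next-brightest or mean probe, bright probes, probes detected on all 3 arrays and a 1.5-fold threshold. The mitochondrial medians were also taken with Crat and Pdk4 counted as mitochondrial. The median SD between repeat spots was between 0.036 and 0.038 on the log2 scale, and precision is limited by having so few arrays.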

Additional observations from a re-analysis of the deposited data

How the results depend on the processing

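No paired analysis was possible because each vector has 1 array, and for the same reason no array could be left out. Of 747 member differences recomputed, 730 stayed within the model error of the main value, 17 moved further and 28 had the other sign than the main value, none of them with a main value over 0.0589 in size. Several settings could move little by construction. Bright probes and probes detected on all 3 arrays mostly reuse the same values, and the mean changes only members with several probes. Median centring and the deposited table shift every gene alike. The model error, 0.20 for bright probes, is also wider than many member differences, so the 730 is a weak check of stability. Of 183 counts and medians recomputed, 146 stayed close to their main value. For a count, close meant equal or within a ratio of 1.5. For a median it meant a change below the median model error of about 0.20. That is wider than the main medians themselves, so a median could change sign and still be counted as close. At a 1.5-fold threshold, 3 of 35 members were lower for Cd74 against Empty, where 647 of 15614 genes were lower. For Tmem54 against Empty 3 of 35 were lower, where 386 of 15516 genes were. For Cd74 against Tmem54 4 of 35 were lower, where 739 of 15423 genes were. The counts of members higher stayed close to the main counts at this threshold. With the next-brightest probe, which only members with several probes have, 0 members were counted higher for Cd74 against Empty, 0 lower for Tmem54 against Empty and 0 higher for Cd74 against Tmem54, since Acot2 and Nudt7 have 1 detected probe each. Normexp correction left 0 members lower for Tmem54 against Empty, with Nudt7 at -0.93. Over all genes, higher and lower counts for Cd74 against Empty were 529 and 647 at 1.5-fold, 25 and 36 for bright probes, 49 and 50 for the next-brightest probe, 58 and 61 under normexp and 56 and 125 for probes detected on all 3 arrays. For Tmem54 against Empty they were 205 and 386, 4 and 17, 30 and 37, 32 and 34, and 23 and 57, in the same order of settings. For Cd74 against Tmem54 they were 782 and 739, 57 and 69, 64 and 67, 94 and 103, and 138 and 170. By construction the 1.5-fold setting counts at a lower threshold, and the settings on bright, next-brightest and detected probes compare fewer genes. The cause was not tested for normexp, which changes the background correction and adds an offset. Signals near background limit Ehhadh, Acot3, Pdk4 and Cpt1b, and under normexp the Tmem54 difference from Empty was 0.13 for Ehhadh, -0.14 for Acot3, -0.05 for Pdk4 and -0.31 for Cpt1b.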

Other observations

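Genes of the opposing pathway, the making of malonyl-CoA and fatty acids, were compared for 14 of 15 listed genes. With Cd74, 10 were below Empty and 4 above, where 47.6% of all genes were below, with a median of -0.15 (8 below and 6 above under normexp correction), and with Tmem54 the median was 0.01. Gpam, which starts glycerolipid synthesis, had a signal of 17.1 with Cd74, 10.1 with Tmem54 (not well above background) and 171 with Empty. It was 9.58-fold lower with Cd74 and at least 12.4-fold lower with Tmem54, so the Empty array alone was high, and normexp correction left log2 differences of -1.39 and -1.47. Scd2, a stearoyl-CoA desaturase, had 19319 with Cd74, 43741 with Tmem54 and 37654 with Empty, at -0.90 ± 0.20 with Cd74. Fasn, the fatty acid synthase, was at 0.01 with Cd74 and -0.04 with Tmem54. Prkaa2, a catalytic subunit of AMP-activated kinase, was at 0.53 with Cd74 and -0.11 with Tmem54.

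Of 7 ketone body enzymes, Acat1, which acts in both making and using ketone bodies, had 1271 with Cd74, 2007 with Tmem54 and 1804 with Empty, at -0.44 with Cd74. Bdh1, a mitochondrial ketone body dehydrogenase, was well above background with Cd74 alone, at 19.7, against 9.97 with Tmem54 and 11.7 with Empty, at least 1.57-fold higher with Cd74 than with Empty. Among receptor partners and relatives, 14 of 18 were above Empty with Cd74, where 52.4% of all genes were above, with a median of 0.09. Past 2-fold were 0 of them, against 2.43% of all genes. Sirt1, a deacetylase that acts on Ppargc1a protein, was at 0.43 with Cd74, and Pparg, the adipocyte relative of Ppara, at -0.57 (signals of 47.1 with Cd74, 64.1 with Tmem54 and 73.3 with Empty). Of the other acyl-CoA thioesterases and synthetases compared, 7 were above Empty with Cd74 and 5 below, against 52.4% and 47.6% of all genes. Acss2, the cytosolic acetyl-CoA synthetase, had 118 with Cd74, 246 with Tmem54 and 203 with Empty, at -0.72 with Cd74. Slc27a5, a bile acid and fatty acid CoA ligase of liver, had 23.6 with Cd74 and was not well above background with Tmem54 (14.7) or Empty (12.8), at least 1.89-fold higher with Cd74 than with Empty. Other mitochondrial oxidation and electron transfer genes had a median of -0.03 with Cd74 and 0.04 with Tmem54 over 20 genes.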
